A study of Mus musculus with 2 samples.

Results

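Chemokines and chemokine receptors were examined as 1 group of 36 genes, 25 ligands and 11 receptors, taken from a given list of gene names among the 15623 genes listed in the deposited tables. Reads were found for 34 of the 36 members in 1 or both libraries, and 31 exceeded 3 counts in at least 1 library. The cells were peritoneal macrophages of wild type C57BL/6 mice, elicited with thioglycolate, purified by adherence to plastic and starved in low serum. 1 library came from non-treated cells (NT) and 1 from cells stimulated with mouse IL-4 for 6 h, and total RNA was sequenced. The labels name bone marrow as the tissue while the source and the culture protocol name peritoneal macrophages. All 8 macrophage markers checked (among them Adgre1, Csf1r and Lyz2) had reads in both libraries. Their FPKM sum was 14906 in NT and 14769 in IL-4, of which Lyz2 held 11289.3 and 10811. They were chosen as markers of macrophages and not of a tissue, so they cannot decide between the labels.

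Chemokines are small secreted proteins that guide leukocytes along gradients by binding G protein-coupled receptors. CC and CXC ligands are named for the spacing of their first cysteines, and many ligands share a receptor. IL-4 is the cytokine of type 2 immunity that acts on macrophages through the transcription factor STAT6, and CCL17, CCL22 and CCL24 are well-known products of macrophages in that state.

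The libraries held 11035641 expected counts in NT and 11250099 in IL-4, so that 3 counts, taken as the lowest level that can be told from 0, correspond to 0.272 and 0.267 CPM (counts scaled to the library total). Levels are given in counts, as RSEM estimates them, and in FPKM (fragments scaled to transcript length and library size), and only FPKM was compared between genes. A gene was called higher or lower in IL-4 when its log2 ratio reached 0.75 in size and an exact binomial test of its counts gave a p of at most 0.05 and a Benjamini-Hochberg value of at most 0.5. There was no replicate check: the test and the 95% intervals (exact Clopper-Pearson) cover counting error between 2 libraries, not the spread between cultures or mice. In bulk RNA, a change in the number of cells of a type and a change in RNA per cell cannot be told apart.

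Ligands, not receptors, made up the calls in the upward direction. Of the 36 members, 10 rose in IL-4 (background 4.07% of the 15593 genes tested) and all 10 were ligands. A further 6 members fell (background 6.28%), namely the ligands Ccl3, Ccl4, Cxcl1 and Cxcl16 and the receptors Cx3cr1 and Ccrl2. As shares of the 36 members these are 27.8% and 16.7%, and since the members were chosen with results of these data known, no test was made of the shares. Of the members not called, 15 exceeded 3 counts in at least 1 library, 3 stayed at or under 3 counts in both (Ccl12, Cx3cl1 and Ackr3), and Ppbp and Ccr3 were listed in neither library. The median log2 ratio of the 34 members with reads was 0.13, against -0.03 over all genes tested. It was -0.01 over the 31 members above 3 counts, with 15 of these members above 0 and 16 below. For this, a gene not listed in NT was set at its ratio against 3 counts in NT. On the same footing the 22 ligands had a median of 0.54 and the 9 receptors -0.32.

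**Figure D1:**
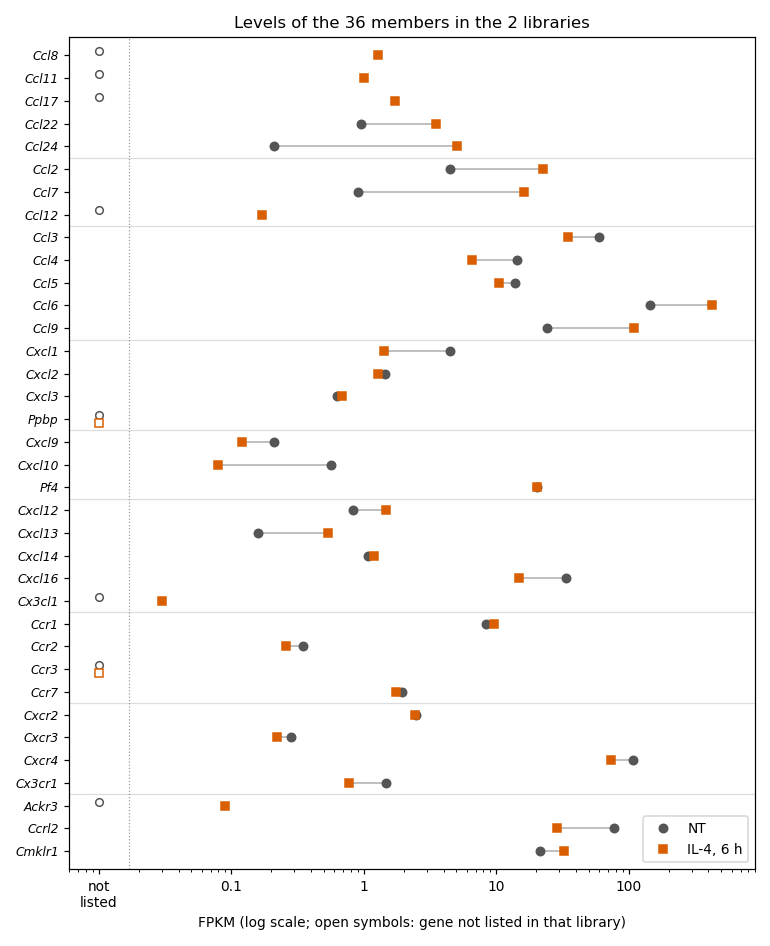
FPKM of each of the 36 members (horizontal axis, log scale) in the NT library (grey circles) and the IL-4 library (orange squares), grouped by role with ligands above and receptors below. Ccl6 is the member with the most FPKM in both libraries, 144.28 in NT and 426.21 in IL-4, and open symbols mark genes not listed in a library.

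Ccl8, Ccl11, Ccl17, Ccl22 and Ccl24, each a ligand of CCR3, CCR4 or CCR8, receptors of eosinophils and type 2 lymphocytes, were called higher from low starting levels. These 5 were grouped with results known and are not all the ligands of these receptors. Ccl5 and Ccl7, described further on, also bind CCR3, and Ccl5 was not called while Ccl7 rose. Of ligands that are no members, Ccl28, which binds CCR3, had 36.06 and 51.19 counts and was not called. Its log2 ratio was 0.47 (-0.17 to 1.13). Ccl1 and Ccl26, also no members, were listed in neither library. Ccl24 (eotaxin-2, a CCR3 ligand that draws eosinophils) had 3 counts in NT and 72 in IL-4, or 0.21 and 5.02 FPKM. Its log2 ratio was 4.34 (95% interval 2.95 to 6.87), the highest of the members with counts in both libraries. Ccl22, a CCR4 ligand that attracts Th2 and regulatory T cells, was already present in NT with 19 counts and reached 72 in IL-4, 0.95 and 3.53 FPKM. Its log2 ratio was 1.87 (1.15 to 2.71). The other 3 were not listed in NT, so a fold is given with NT set at 3 counts, without counting error in IL-4. Beside it stands the lower 95% limit of the log2 ratio. Ccl17, the second CCR4 ligand, had 10 counts and 1.73 FPKM in IL-4 and was 3.27-fold higher (limit 1.14). Ccl11 (eotaxin-1) had 12 counts, 1.01 FPKM, and was 3.92-fold higher (limit 1.45). Ccl8, in the mouse a CCR8 ligand, had 7 counts, 1.27 FPKM, and was 2.29-fold higher. Its limit of 0.50 lay under the threshold of 0.75. After 6 h these 5 ligands thus stood between 1.01 and 5.02 FPKM in IL-4, under the levels of the CCR1 ligands described further on. Ccr3 was listed in neither library.

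The promoter of Ccl17 is shown because it was the member promoter that held both spacings of the TTC and GAA arms that STAT factors bind. Promoters (250 bases before to 50 after the start) were found in the RefSeq table of build GRCm38.p6 for 28 of the 36 members, with no entry for Ccl2, Ccl4, Ccl5, Ccl7, Ccl11, Ccl24, Cxcl16 and Ccr7. The motif TTCNNNNGAA, the spacing preferred by STAT6, was searched on both strands, and so was TTCNNNGAA. The first occurred in 1 of the 28 members, Ccl17, and in 6.95% of all 32851 promoters. The second occurred in 2 members, Ccl17 and Cxcl14, and in 8.3% of all promoters. In the stretch below (chr8:94810284-94810377, plus strand, positions -169 to -76 from the start) capitals mark the 2 motifs, at -154 to -145 and at -99 to -91.
Ccl17: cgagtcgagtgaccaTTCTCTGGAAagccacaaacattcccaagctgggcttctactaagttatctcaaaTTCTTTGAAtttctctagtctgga
The start used by that table, at position 94810453 of chromosome 8, lies inside the annotated gene (chr8:94809380-94812038). A match of letters is a description and not a shown binding site, and Ccl22, Ccl8 and the other raised members with a promoter in the table had no match to TTCNNNNGAA in this window.

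Of the CCR2 ligands, the monocyte chemoattractants, 2 of 3 rose. Ccl2 (MCP-1) had 39 counts in NT and 198 in IL-4, or 4.51 and 22.45 FPKM, a log2 ratio of 2.30 (1.81 to 2.85). Ccl7 (MCP-3) went from 9 to 162 counts, 0.91 to 16.14 FPKM, with a log2 ratio of 4.07 (3.18 to 5.30). The intervals of the 2 genes did not overlap. The third gene of the group, Ccl12 (MCP-5), had 0 counts in NT and 1 in IL-4, for which no ratio is given. Their receptor Ccr2, the receptor of inflammatory monocytes, was low in both libraries, with 13.8 and 10.58 counts (0.35 and 0.26 FPKM) and a log2 ratio of -0.40 (-1.66 to 0.87), and was not called.

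The ligands Ccl3, Ccl4, Ccl5, Ccl6 and Ccl9 split into genes that rose and genes that fell. Ccl6, a mouse CC chemokine of macrophages that signals through CCR1, was the most abundant member, with 2269 counts in NT and 6837 in IL-4. Its FPKM of 144.28 and 426.21 ranked it at 465 among the genes of the NT library and at 176 in IL-4, and the log2 ratio was 1.56 (1.49 to 1.63). Ccl9 (MIP-1 gamma), a close relative of Ccl6, had 810.95 and 3705.38 counts, 24.29 and 108.79 FPKM, with a log2 ratio of 2.16 (2.05 to 2.28). It shares 31-base words with 67 other genes, at most 2.12% of its words with any of them (Smarcb1), which makes its counts estimates. Ccl3 and Ccl4 (MIP-1 alpha and beta), which are induced by inflammatory stimuli, moved the other way. Ccl3 had 518 counts in NT and 307 in IL-4 (60.06 and 34.9 FPKM), a log2 ratio of -0.78 (-0.99 to -0.58). Ccl4 had 103 and 48 counts (14.38 and 6.57 FPKM), a log2 ratio of -1.12 (-1.65 to -0.62). Ccl3 sat close to the threshold of 0.75 and lost its call with TMM scaling, while its direction held in every alternative tried. Ccl5 (RANTES) was not called, with 85 and 65 counts, 13.94 and 10.45 FPKM, and a log2 ratio of -0.41 (-0.90 to 0.07).

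Ccl6 and Ccl9 set most of the ligand transcripts. The FPKM of the 25 ligands summed to 327.2 in NT and 680.24 in IL-4. Ccl6 and Ccl9 together held 51.5% of that sum in NT and 78.6% in IL-4. Ccl3 held 18.4% of the ligand FPKM in NT and 5.13% in IL-4, and Cxcl16 held 10.3% and 2.18%. Over the 11 receptors the FPKM sum was 221.23 in NT and 150.14 in IL-4, with Cxcr4 and Ccrl2 the most abundant of them in NT.

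**Figure D2:**
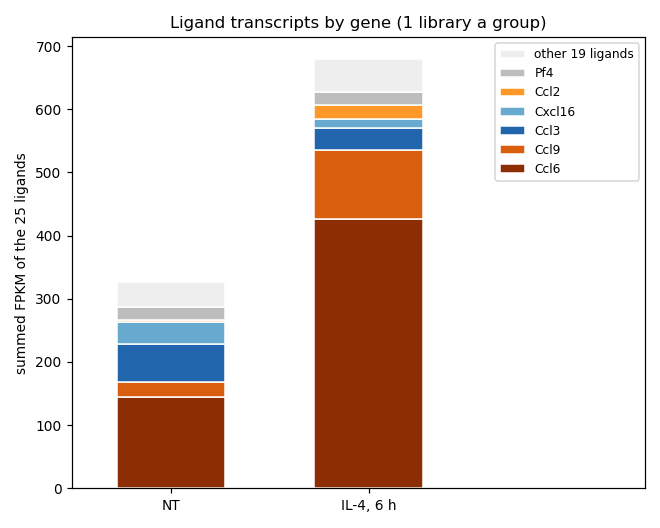
Summed FPKM of the 25 ligands (vertical axis, from 0) in the NT and IL-4 libraries, split by gene, with 1 library a group and no error bar. The total is 327.2 in NT and 680.24 in IL-4, and the Ccl6 and Ccl9 segments at the foot of each bar make up 51.5% and 78.6% of it.

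Among the members that are ligands of CXCR2, the neutrophil chemoattractants, 1 of 4 fell. Cxcl5, a further CXCR2 ligand that is no member, was also called lower and is described with the gene blocks. Cxcl1 (KC) had 47 counts in NT and 15 in IL-4, 4.51 and 1.41 FPKM, a log2 ratio of -1.64 (-2.62 to -0.81). Cxcl2 (MIP-2) had 17 and 15.3 counts, 1.45 and 1.28 FPKM, with a log2 ratio of -0.18 (-1.31 to 0.88). Cxcl3 had 7 and 7.7 counts, 0.63 and 0.68 FPKM, with a log2 ratio of 0.10 (-1.49 to 1.86). The intervals of Cxcl2 and Cxcl3 are wide and overlap that of Cxcl1, and the difference between the genes was not tested. Cxcl2 and Cxcl3 share sequence: 161 of the 31-base words of Cxcl2, 7.59% of them, are also in Cxcl3, and their counts of reads that match both are estimates. Ppbp, the platelet basic protein gene, was listed in neither library. Cxcr2 itself had 84.1 and 83.9 counts, 2.49 and 2.43 FPKM, a log2 ratio of -0.03 (-0.48 to 0.43). Of the 7 neutrophil markers, 6 were listed in neither library and S100a8 had 35 and 21 counts. The transcript of Cxcr2 shares 31-base words with 85 other genes, at most 3.32% of its words with any of them (Dnajb14).

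The promoters of Cxcl1, Cxcl2 and Cxcl3 are shown because they share a word. Of the 3 genes only Cxcl1 was called, and a difference in ratio between them was not tested. The stretches below are from RefSeq, build GRCm38.p6, plus strand of chromosome 5, and capitals mark the 11-base word that all 3 hold. It starts at -71 in Cxcl1 (chr5:90891149-90891209), at -97 in Cxcl2 (chr5:90903777-90903837) and at -73 in Cxcl3 (chr5:90786003-90786063).
Cxcl1: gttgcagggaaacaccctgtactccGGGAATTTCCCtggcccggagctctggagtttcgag
Cxcl2: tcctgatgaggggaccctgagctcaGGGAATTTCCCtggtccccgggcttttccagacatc
Cxcl3: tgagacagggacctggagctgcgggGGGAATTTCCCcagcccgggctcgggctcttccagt
The word holds 2 overlapping matches to the NF-kB consensus, and it occurred on either strand in 0.0426% of the 32851 promoters, 14 in all, of which these are the member promoters. The NF-kB consensus, searched on both strands, occurred in 8 of the 28 members with a promoter and in 8.46% of all promoters. The 8 were Ccl9, which rose, Cxcl1 and Ccrl2, which fell, Cxcl2, Cxcl3, Cxcl10 and Ccr1, which were not called, and Ccr3, which was not listed.

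None of the 3 genes listed with the CXCR3 ligands was called. Cxcl9 and Cxcl10, which interferons induce and which attract T and NK cells, were near the floor. Cxcl9 had 6.81 and 4.09 counts (0.21 and 0.12 FPKM) and a log2 ratio of -0.70 (-3.05 to 1.14). Cxcl10 had 7 counts in NT and 1 in IL-4 (0.57 and 0.08 FPKM) and a log2 ratio of -2.35 (-8.33 to 0.13). Its call depended on how the exact test forms its p: it was not called when the smaller tail was doubled, the form used here, and was called lower when outcomes no more likely than the one seen were summed. Pf4, platelet factor 4, had 133 and 135 counts, 20.46 and 20.36 FPKM, with a log2 ratio of -0.01 (-0.36 to 0.35). The 5 platelet markers summed to 12 counts in NT and 3 in IL-4, with Gp9 and Gp1bb at 0 in both. The receptor Cxcr3 had 5 and 4 counts, 0.28 and 0.22 FPKM, a log2 ratio of -0.32 (-2.68 to 1.87).

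Of the remaining ligands, Cxcl16 fell and Cxcl12 rose. Cxcl16, a membrane-bound chemokine and scavenger receptor of macrophages that binds CXCR6, had 915 counts in NT and 410 in IL-4, 33.77 and 14.83 FPKM, a log2 ratio of -1.18 (-1.36 to -1.02). Cxcl12 (SDF-1), the stromal ligand of CXCR4 and ACKR3, had 21 and 41 counts, 0.83 and 1.47 FPKM, a log2 ratio of 0.92 (0.15 to 1.77). The call of Cxcl12 rested on few reads and was lost in 5 of the 12 alternatives. The 5 fibroblast markers, from a cell type known to make Cxcl12, summed to 2300 counts in NT and 1922 in IL-4. All 5 had ratios below 0 and none was called. Col1a1, Col1a2, Col3a1 and Pdgfra among them have transcripts of 5222 to 6555 bases. The median log2 ratio of the genes nearest in length was -0.22 at 5054 bases and -0.34 at 6743. This trend was not subtracted from the marker ratios. Cxcl13, which attracts B cells, had 2 and 7 counts (0.16 and 0.54 FPKM) with a log2 ratio of 1.56 (-0.61 to 5.08). Cxcl14 had 22 and 25 counts (1.08 and 1.2 FPKM) with a log2 ratio of 0.15 (-0.73 to 1.05). Cx3cl1, the membrane-bound ligand of CX3CR1, had 0 and 1 counts.

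**Figure D3:**
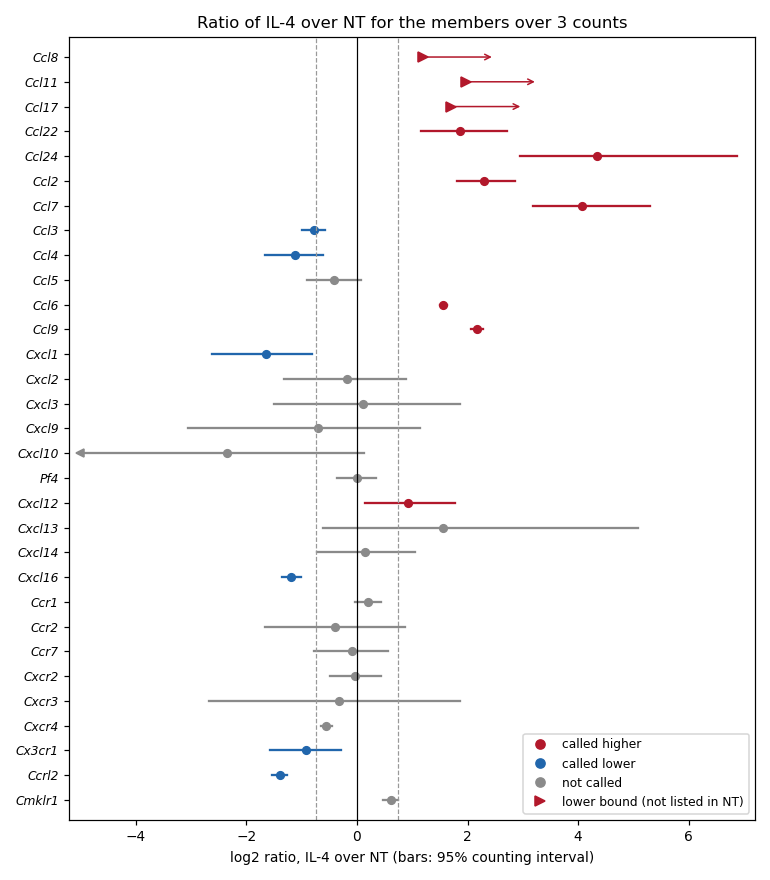
Log2 ratio of IL-4 over NT (horizontal axis) for the 31 members above 3 counts, with bars for the 95% counting interval. Arrows mark the 3 genes not listed in NT. Their points, labelled lower bound, are ratios with NT set at 3 counts and not 95% limits. Red members were called higher, blue lower and grey were not called, dashed lines mark the thresholds of -0.75 and 0.75, and the interval of Cxcl10 runs past the left edge.

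No receptor was called higher and 2 of 11 fell. Ccrl2, an atypical receptor that binds chemerin without signalling through G proteins, had 1655 counts in NT and 639 in IL-4, 76.79 and 28.91 FPKM, a log2 ratio of -1.40 (-1.53 to -1.27). Cmklr1, the signalling receptor for chemerin, had 670.75 and 1043.49 counts, 21.25 and 32.42 FPKM, a log2 ratio of 0.61 (0.47 to 0.75). The intervals of these receptors for 1 ligand lay on opposite sides of 0. Cmklr1 stayed under the threshold of 0.75 and was called higher with a fold over 1.5 and an adjusted value of at most 0.05. In FPKM, Ccrl2 stood above Cmklr1 in NT and below it in IL-4. Cx3cr1, the fractalkine receptor, had 61.21 and 32.68 counts, 1.47 and 0.77 FPKM, a log2 ratio of -0.92 (-1.57 to -0.28).

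Cxcr4, the CXCL12 receptor, was the most abundant receptor, with 2171 counts in NT and 1506 in IL-4, 108.26 and 73.63 FPKM. Its log2 ratio of -0.56 (-0.65 to -0.46) did not reach the threshold of -0.75, so it was not called. The interval lay below 0 and above that threshold. Ccr1, the receptor of Ccl6 and Ccl9, had 264 and 309 counts, 8.41 and 9.65 FPKM, a log2 ratio of 0.20 (-0.04 to 0.44). Ccr7, which guides cells to lymph nodes, had 41 and 39 counts, 1.93 and 1.76 FPKM, a log2 ratio of -0.10 (-0.77 to 0.57). Ackr3, the scavenging receptor for CXCL12, had 0 and 2 counts.

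In the genome, 8 of the 10 raised ligands lay in 3 blocks of chemokine genes, and 1 of these blocks held both directions. Ccl24 and Cxcl12 lay elsewhere. The block ends were set at chosen chemokine genes. These 3 blocks hold 5, 5 and 3 of the 25 member ligands, raised or not, and the share was not tested. A further block on chromosome 5, with Cxcl9 and Cxcl10, held no called gene. On chromosome 11 the 5 genes of the block from Ccl2 to Ccl8 (chr11:82035577-82116799, 81.2 kb, GRCm38.p6) were Ccl2, Ccl7, Ccl11, Ccl12 and Ccl8, of which 4 were called higher and Ccl12 had 1 count. In a second block of 5 genes (chr11:83525778-83664683, 139 kb), Ccl9 and Ccl6 rose, Ccl3 and Ccl4 fell and Ccl5 was not called. The annotations of Ccl3 (chr11:83647843-83649378) and Ccl4 (chr11:83648624-83664683) overlap, and the use of strand in counting is not given in the sources used here, so reads in the overlap may be counted for either. On chromosome 8 (chr8:94745684-94812038, 66.4 kb) Ccl22 and Ccl17 rose on both sides of Cx3cl1. On chromosome 5 (chr5:90759298-90905938, 147 kb) Cxcl1 was the member that fell, in a block with Ppbp, Pf4, Cxcl3 and Cxcl2. Cxcl5, which is no member and was named after its values were seen, lies at the other end of this block and had 49 and 13 counts, a log2 ratio of -1.90 (-2.95 to -1.04).

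**Figure D4:**
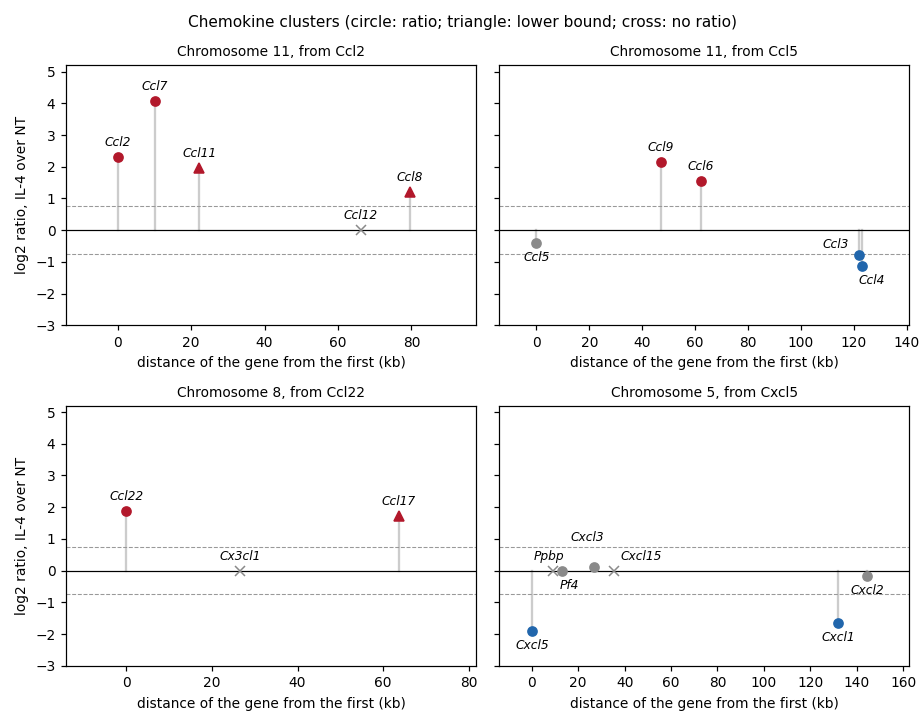
Log2 ratio of IL-4 over NT (vertical axis) against the distance of each coding gene from the first gene of its block, in kb, for the blocks on chromosomes 11, 8 and 5 (red called higher, blue called lower, grey not called). Triangles, labelled lower bound, are genes not listed in NT, with NT set at 3 counts, and are not 95% limits. Crosses are genes with no ratio. In the second block of chromosome 11 Ccl9 and Ccl6 lie above 0 while Ccl3 and Ccl4 lie below. The block of Cxcl9 and Cxcl10 is not shown.

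The other genes of the pathway were counted over lists that were also chosen with results known. Over all genes tested, 4.07% were called higher and 6.28% lower, and the median log2 ratio was -0.03. The trend of ratios with transcript length, described further on, was not subtracted from the values of these lists, and no list was tested as a set. Of 13 further chemokines, 7 had reads, 0 were called higher and 1 lower (Cxcl5). Of 23 further chemoattractant receptors, 2 were called higher and 5 lower, and 1 symbol was not found in the gene table. C5ar1, the complement C5a receptor, had 840 and 325 counts and a log2 ratio of -1.40 (-1.59 to -1.21). Ptafr, the receptor for platelet-activating factor, had 6062.11 and 3489.83 counts and a log2 ratio of -0.82 (-0.88 to -0.76). Of 34 genes of G protein signalling and migration, 0 were called higher and 4 lower, and their median log2 ratio was -0.41. Among them were Ptk2b (2732 and 1172 counts, log2 ratio -1.25), Rgs1 (1377 and 653, -1.10) and Plcb2 (493 and 252, -0.99). Of 10 proteases known to cut chemokines, 1 rose and 1 fell, and Ctsl, cathepsin L, had 25528.3 and 48849.3 counts with a log2 ratio of 0.91 (0.89 to 0.93).

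Markers of other cells were checked because several members are also made elsewhere, and their part in the results was not tested. In summed counts, NT against IL-4, the lists held 71.77 and 43.23 for eosinophils, 69 and 50 for mast cells, 106 and 96 for B cells, and 11.74 and 6.16 for T and NK cells. They held 26.83 and 31.5 for dendritic cells, 124 and 112 for mesothelial cells, 182 and 86 for endothelial cells, 14 and 20 for monocytes and 368 and 449 for large peritoneal macrophages. Of these, Siglecf, Kdr, Msln and Gp1ba (platelet list) were called lower, and Ly6c2 and Selp were called higher. Of the macrophage list, Csf1r rose and Cd14 fell.

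Member transcripts were shorter than most, with a median length of 1522.5 bases against 2707 over all genes tested, and ratios drifted with length. The median log2 ratio of the 200 genes nearest in length ran from -0.10 to 0.21 at the members, 0.17 in the median at ligands and 0.09 at receptors. With this trend subtracted, 10 members were called higher and 7 lower, the added one being Cxcl10, and the median of the members with reads was -0.001.

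**Figure D5:**
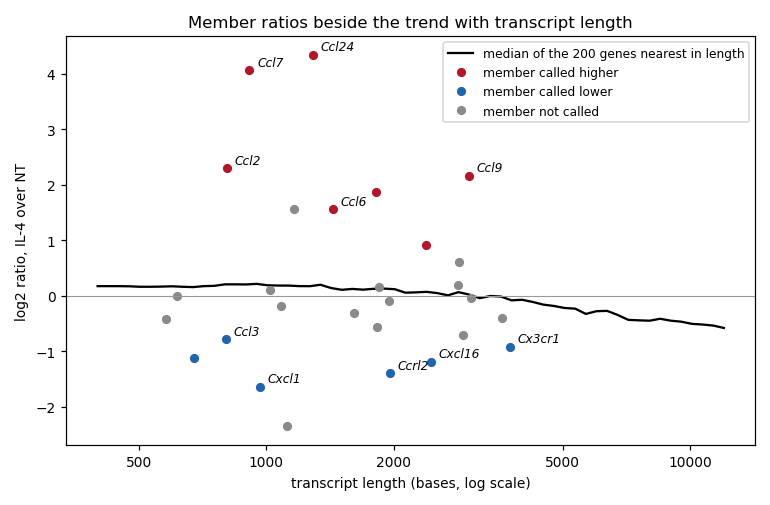
Log2 ratio of IL-4 over NT for members with counts in both libraries (points) against transcript length in bases (log scale), with the median of the 200 genes nearest in length among genes with at least 200 reads (black line). The line lies between -0.10 and 0.21 at the members. The threshold of 0.75 by itself places every called member farther from 0 than the line, so their distance from it is no check on the trend.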

How the data were processed

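Each library's table gave, per the file headers, an expected count, an FPKM value and a transcript length for each gene; the authors made these with RSEM after Bowtie alignment to GRCm38/mm10, per the labels, with versions not given in the sources used here. Gene symbols came from the RefSeq GRCm38.p6 table, which matched 15587 of 15623 genes, as did promoters and positions. Counts were rounded for testing; 8 members had a count that was not whole. Log2 ratios used the deposited expected counts with 0.5 added, scaled to library totals. A gene absent from a table was taken as 0. Depth was 11035641 (NT) and 11250099 (IL-4) counts; intervals and floors cover counting error only. With 1 library a group no model of replicate spread could be fitted, so each gene was tested with an exact conditional binomial test (scipy 1.17.1), two-sided. Summing all outcomes no more likely than the one seen was run first; doubling the smaller tail replaced it after the calls of both forms, and earlier results of these data, had been seen, because it matches the intervals and treats both directions alike. The replaced form is kept as an alternative. Members and gene lists were chosen with earlier results of these data known. All members were accounted for, and genes of other lists were named when called with at least 50 counts in the library with more, at most 6 a list; some genes that meet this rule are not reported here. Alternatives used edgeR 4.0.16 (TMM, and its exact test, assuming replicates vary by a coefficient of 0.2 or 0.4), DESeq2 1.42.0 size factors, other totals, FPKM with 0.1 or 1 added, a read filter, other thresholds and a length correction. The scripts were tested on simulated data.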

Additional observations from a re-analysis of the deposited data

How the results depend on the processing

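No paired analysis was possible because there is a single library on each side, and no replicate could be left out for the same reason. Against 10 members called higher and 6 lower, an assumed coefficient of variation of 0.4 between replicates left 2 and 0, and one of 0.2 left 9 and 4. Over the other 10 alternatives 8 to 10 members were called higher and 4 to 7 lower. Only Ccl24 and Ccl7 kept their call in all 12 alternatives. Ccl3 and Cx3cr1 lost it in 4, Cxcl12 in 5 and Ccl8 in 3, and the other 10 called members lost it only at 0.4. Of the members not called, Cxcl10 became lower with the length trend subtracted and with the form of the exact test that was run first, and Cmklr1 became higher with a fold over 1.5. The choice between the forms of the exact test was made after seeing the data: the first gave 10 members higher and 7 lower, and 637 and 1053 over all genes. No called member changed direction in any alternative. The median log2 ratio of 0.13 moved to -0.0063 with at least 10 reads and to -0.001 with the length trend subtracted; the first tests fewer genes. Ccl8, Cxcl10, Cxcl13 and Cxcr3 have no value with at least 10 reads. Over all genes, 635 were higher and 979 lower, against 391 and 399 with 1 added to FPKM, 408 and 476 with a log2 ratio of at least 1, and 390 and 423 or 65 and 8 with assumed coefficients of variation of 0.2 or 0.4. Depth limits Ccl8, which was called, and Cxcl9, Cxcl10, Cxcl13, Cxcl3 and Cxcr3, which were not, each under 10 counts in both libraries. Of the 16 called members, 5 had under 50 counts in both libraries (Ccl8, Ccl11, Ccl17, Cxcl1 and Cxcl12).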

Other observations

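The expected length of Cxcl12, which RSEM weights by transcript isoform, was 2290 bases in NT and 2469 in IL-4. At 21 and 41 counts the split between isoforms rests on few reads, and the difference was not tested. Ltb4r1, the receptor for leukotriene B4 and no member of the list, was not listed in NT and had 16 counts in IL-4. With NT set at 3 counts it was 5.23-fold higher, and the lower 95% limit of its log2 ratio was 1.92. Ltb4r1 was named after its values were seen.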
